A study of Mus musculus with 6 samples.

Results

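The 10 genes described here encode enzymes and proteins of antioxidant defence in pancreatic islets. They are Sod1, Sod2, Cat, Gpx1, Gpx3, Gpx4, Prdx1, Txn1 and Nqo1, together with Txnip, which encodes an inhibitor of thioredoxin. They were chosen by name, and all 10 were found among the 34945 gene symbols of the deposited table. RNA was sequenced from whole islets of mice in a control and a Jag1 group, with 3 libraries in each. Every mouse carried RIP-Cre and Rosa26-rtTA, a Cre recombinase under the rat insulin promoter and a doxycycline-dependent transactivator, and all of them drank doxycycline for 8 weeks. Control mice had the genotype RIP-Cre+, Rosa26-rtTA+, tetO_Jag1-. Mice of the Jag1 group were RIP-Cre+, Rosa26-rtTA+, tetO_Jag1+ and so could express the Notch ligand Jag1 from the tetO_Jag1 allele, with the insulin promoter aiming Cre at beta cells. The age, sex and strain are not given in the sources used here, nor is it stated whether the libraries of a group come from different mice. The tests therefore weigh differences against the spread among libraries, which may be technical. In whole islets, fewer cells of a type and less RNA per cell cannot be told apart.

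Superoxide made by mitochondria and oxidases is turned into hydrogen peroxide by superoxide dismutases. Peroxide is then removed by catalase, by glutathione peroxidases, which spend glutathione, and by peroxiredoxins, which are recharged by thioredoxin. Beta cells are known for low catalase and glutathione peroxidase activity compared with most tissues, and for strong induction of Txnip by glucose. The transcription factor Nrf2, encoded by Nfe2l2, induces many antioxidant genes through the antioxidant response element, and ChREBP, encoded by Mlxipl, induces Txnip through a carbohydrate response element made of a pair of E-box-like motifs at a fixed spacing.

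The stretches before the start sites of Txnip, of its relative Arrdc4 and of Prdx1 are shown because they carry these regulatory motifs, which none of the other members but Sod1 held in this window. Each was taken from RefSeq on GRCm38.p6, which had entries for all 10 members, and reads 5′ to 3′ on the gene's strand from 250 bases before the start site. Bases annotated as untranslated region in GENCODE were left off, and capitals mark the fixed letters of a motif match.
Txnip, chr3:96557707-96557956, plus strand: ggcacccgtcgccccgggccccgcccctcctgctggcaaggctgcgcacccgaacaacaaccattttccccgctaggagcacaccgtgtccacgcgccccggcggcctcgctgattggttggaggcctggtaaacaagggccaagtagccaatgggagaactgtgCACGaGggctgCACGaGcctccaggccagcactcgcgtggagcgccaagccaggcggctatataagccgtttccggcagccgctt
Arrdc4, chr7:68749242-68749488, minus strand: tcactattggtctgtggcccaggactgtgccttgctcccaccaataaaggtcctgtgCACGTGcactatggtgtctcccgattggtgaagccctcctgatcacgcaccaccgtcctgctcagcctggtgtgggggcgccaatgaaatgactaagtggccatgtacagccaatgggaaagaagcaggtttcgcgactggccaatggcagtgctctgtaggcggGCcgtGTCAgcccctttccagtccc
Prdx1, chr4:116685349-116685543, plus strand: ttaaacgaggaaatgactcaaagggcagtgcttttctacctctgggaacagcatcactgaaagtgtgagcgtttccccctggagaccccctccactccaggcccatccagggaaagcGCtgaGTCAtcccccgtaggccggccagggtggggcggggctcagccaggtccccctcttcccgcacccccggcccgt

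Motifs were searched on both strands in the 250 bases before every RefSeq start site, and a match describes letters only, not a bound site. The Txnip window held a pair of CACGNG motifs with 5 bases of any kind between them, whose first base lay 85 bases before the start site. That form was chosen after the sequence was seen, and 0.0457% of 32851 windows (15 of them) held it. A plain E-box, CACGTG, was found in 6.02% of windows and stood 193 bases before the Arrdc4 start, and in no window of the 10 members. The 2 forms can overlap, since CACGTG can fill either end of the pair. The core of the antioxidant response element, TGACNNNGC, was found in 10.2% of windows. Among the members it stood 133 bases before the Prdx1 start and 56 bases before the Sod1 start, and the Arrdc4 window held it 28 bases before the start.

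The libraries held 14283469 to 34348729 estimated counts. Levels are given as CPM, counts per 1000000, with library sizes scaled by the trimmed mean of M-values (TMM). Where a gene has a count of 0, its true level could still reach 3 counts, or 0.0853 to 0.204 CPM depending on the library. Jag1 itself stood at 4.01 to 4.28 CPM in control and 525 to 907 CPM in Jag1 libraries, so each library followed its label. Insulin transcripts were abundant throughout, with Ins2 at 86850 to 126800 CPM. Markers of exocrine acinar cells, a list of 22 genes with none at 0, accounted for 7.53%, 2.87% and 0.34% of all counts in the control libraries 1 to 3, and for 0.614%, 2.04% and 7.87% in the Jag1 libraries 1 to 3. The exact Clopper-Pearson 95% interval was 7.518% to 7.541% in Control 1 and 7.853% to 7.878% in Jag1 3. Their summed level spanned 3304 to 81700 CPM in control and 5815 to 82260 CPM in Jag1 libraries. Summed duct markers (12 genes, none at 0, 11 of 12 with a positive fold change) stood at 605.9 to 683 CPM in control and at 756 to 820.5 CPM with Jag1. Much of that gap was Spp1, at 30.6 to 50.1 CPM in control and 101.6 to 143.9 CPM with Jag1. Krt8, Sox9 and Car2 also separated by group, while the other duct genes overlapped. Markers of stellate cells, pericytes and fibroblasts (11 genes, none at 0, 10 of 11 positive) stood at 187 to 230.1 and at 269 to 401.5 CPM, also without overlap. Most of that sum was Rgs5, at 140.7 to 179.9 CPM in control and 210.5 to 255.4 CPM with Jag1. Rgs5 and Acta2 separated by group, while every other gene of this list overlapped, so the sum does not describe the list as a whole. The part of these cell types in the values of the 10 members was not tested.

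Levels between the 10 genes were compared as CPM per kilobase (kb) of exon, with all annotated exons of a gene joined. Gpx3, which encodes the secreted glutathione peroxidase of plasma, was the most abundant member at 743 ± 210.0 CPM per kb in control and 518 ± 66.4 in Jag1 libraries (SD, n = 3). Txnip followed with 122 ± 43.5 and 129.6 ± 10. Prdx1, Gpx4, Gpx1, Sod1 and Txn1 lay close together, from 49.8 down to 38.02 CPM per kb in control, with SDs of 3.22 to 5.78. The ranges of mean ± SD overlapped between neighbours in this order, although Gpx1 (45.8 ± 4.91) and Sod1 (40.4 ± 3.22) differed by more than the SD of either. Sod2 had 6.10 ± 0.272, Cat 4.67 ± 2.05, which overlap, and Nqo1 2.24 ± 0.181 CPM per kb in control. The order depends on the length used. With the shortest coding transcript that has a CCDS entry, chosen after the data were seen, Sod1 came to 250.1 CPM per kb in control and moved from the sixth to the second place, since its exons join to 3970 bp while that transcript has 641 bp. Prdx1 stayed in the third place and Txnip moved to the fourth, at 136 CPM per kb.

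**Figure D1:**
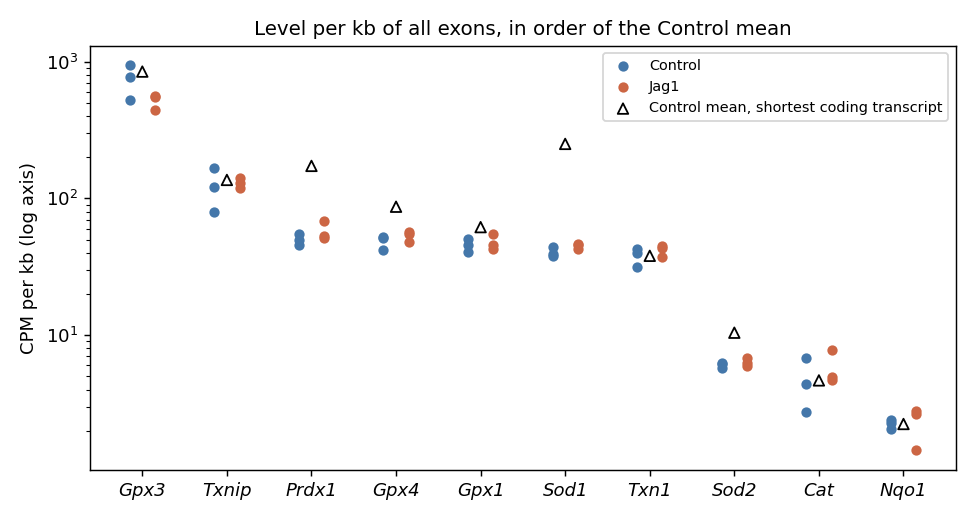
Level of each member in CPM per kb (log axis), with 1 point per library (blue Control, orange Jag1) using all annotated exons, and an open triangle for the Control mean with the shortest coding transcript. Gpx3 stands highest and Nqo1 lowest by either length, while Sod1 and Prdx1 stand higher with the shorter transcript.

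None of the 10 members passed the test between the groups, which does not show that their levels were equal. In the quasi-likelihood test of edgeR, with p-values adjusted (Benjamini-Hochberg) over 14073 genes, 0 of 10 passed an adjusted p of 0.05, where 0.0213% of all genes tested did. The unadjusted p was under 0.05 for 1 member, Gpx3, and for 4.97% of all genes, 2.75% being lower in Jag1 libraries as Gpx3 was. DESeq2 and limma-voom also called 0 of the 10, against 0.173% and 0.0284% of the genes each tested. In 0 of 10 did the groups separate without overlap, against 10.5% of all genes, 5.3% with Jag1 higher and 5.21% with Jag1 lower. The log2 fold change, Jag1 minus control, was positive for 9 members and negative for Gpx3, with a median of 0.11 beside -0.0041 over all genes tested, of which 49% were positive. The median was 0.064 without Control 3 and 0.075 without Jag1 3, and 7 members were positive without Control 3 and without Jag1 2. Exact 2-sided permutation tests over the libraries gave p from 0.2 for Sod1 to 1 for Nqo1, where the smallest p that 3 against 3 allows is 0.1.

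**Figure D2:**
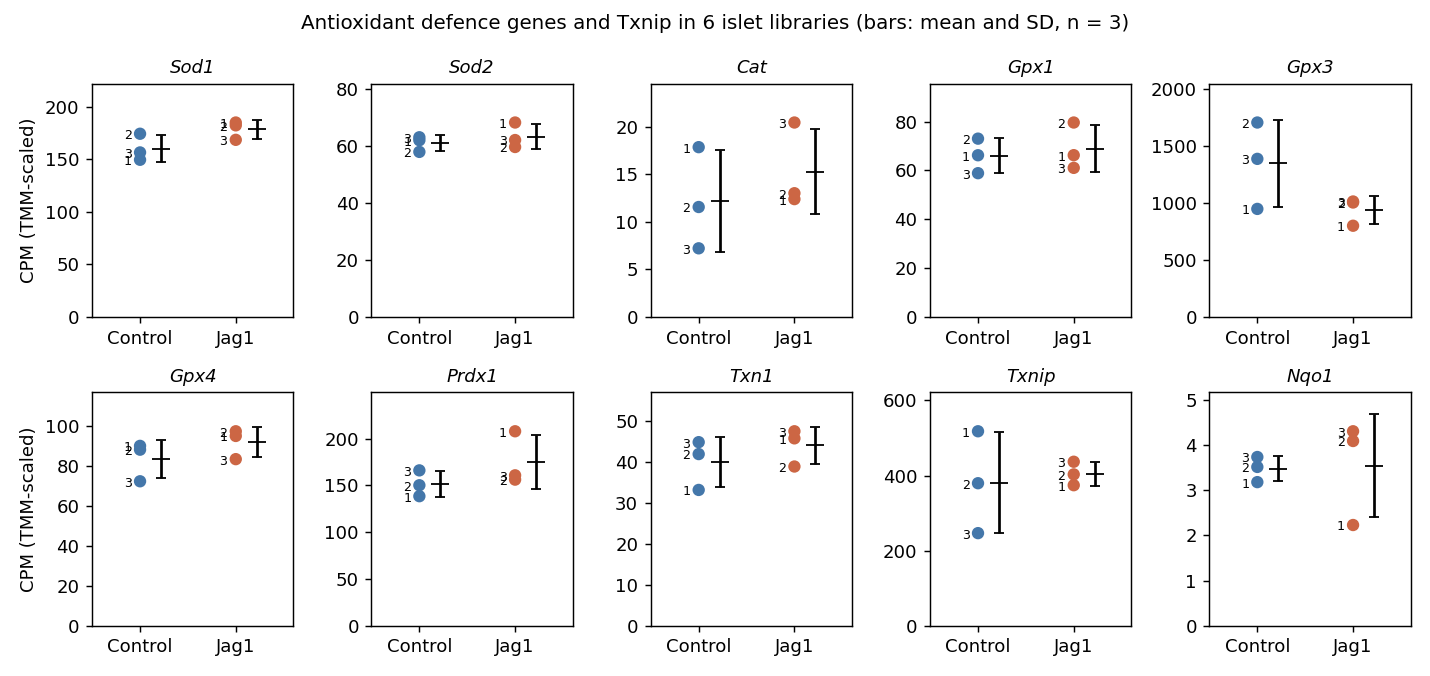
CPM of each member by group, with 1 point per library labelled by its number and a bar for the mean and SD (n = 3), each axis starting at 0. The groups overlap in all 10 panels, and the spread within Control is widest for Cat, Gpx3 and Txnip.

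Sod1 encodes the copper and zinc superoxide dismutase of the cytosol and lies on chromosome 16, 90220754 to 90226329. The control libraries 1 to 3 held 149.7, 174.5 and 157 CPM, and the Jag1 libraries 1 to 3 held 185, 182.5 and 169 CPM. Jag1 1 and 2 lay above every control library, while Jag1 3 lay below Control 2. Sod1 had a log2 fold change of 0.16 (SE 0.11, 95% interval -0.07 to 0.39, edgeR adjusted p = 0.955), so a rise beyond 1.31-fold lies outside the interval. Sod2, the manganese enzyme of the mitochondrial matrix on chromosome 17, 13006846 to 13040063, was the steadiest member. It had 62.1, 57.97 and 63.1 CPM in the 3 control libraries and 68.3, 59.7 and 62.1 CPM in the 3 with Jag1, a spread of 1.18-fold over all 6. Its log2 fold change was 0.05 (SE 0.11, interval -0.18 to 0.29), and -0.003 without Jag1 1, the highest library. Its transcript sequence shares stretches of up to 355 bp with transcripts of many other genes, so its counts are uncertain in part.

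Cat encodes catalase, the peroxisomal enzyme that splits hydrogen peroxide, and lies on chromosome 2, 103453849 to 103485160. It had 17.8, 11.6 and 7.21 CPM in Control 1 to 3 and 12.4, 13 and 20.4 CPM in Jag1 1 to 3. Control 1 and Jag1 3 were the 2 highest and Control 3 the lowest, so the groups interleaved. The spread of 2.83-fold over the 6 libraries was the widest of the members and wider than that of 88.6% of genes tested. Between groups it differed by 0.31 on the log2 scale (SE 0.35, interval -0.51 to 1.13, edgeR adjusted p = 0.961). It ranged from 0.05 without Control 3 to 0.70 without Control 1.

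Among the glutathione peroxidases, which carry selenocysteine in their active site in these 3 forms, Gpx3 had the largest group difference of any member over all 6 libraries, though without Jag1 1 that of Cat was larger (0.44 against -0.42). It lies on chromosome 11, 54902453 to 54910377. Its levels were 948, 1706 and 1387 CPM in Control 1 to 3 and 800.1, 1004 and 1013 CPM in Jag1 1 to 3. Control 2 and 3 stood above every Jag1 library, while Control 1 stood below Jag1 2 and 3. Means were 1347 ± 380.0 CPM for control and 939 ± 120.0 CPM for Jag1 (SD, n = 3), a log2 fold change of -0.52 (SE 0.21, interval -0.98 to -0.06). The unadjusted p was 0.0295 and the adjusted p 0.955 by edgeR. Of all genes tested, not matched to Gpx3 in level, 8.27% had a difference of this size or more in either direction. Without Control 1 the log2 fold change was -0.72, and without Control 2 it was -0.31. Markers of other islet cells were also lower with Jag1, though none passed the test. The 7 alpha cell markers, none at 0, summed to 35350 to 57230 CPM in control and 15010 to 33080 CPM in Jag1 libraries, with a negative fold change for 6 of 7. The 4 delta cell markers, none at 0, summed to 3401 to 4567 and 2686 to 3278 CPM, negative for 4 of 4. Their part in the Gpx3 values was not tested.

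Gpx1, the glutathione peroxidase of cytosol and mitochondria on chromosome 9, 108338903 to 108340343, stood at 66.2, 73.04 and 58.9 CPM in the controls and 66.3, 79.7 and 61.1 CPM with Jag1. Jag1 2 was the highest and Control 3 the lowest. The log2 fold change of 0.06 (SE 0.13, interval -0.22 to 0.35) became -0.05 without Jag1 2 and -0.01 without Control 3. Gpx4 reduces lipid hydroperoxides in membranes and guards against ferroptosis, and lies on chromosome 10, 80047166 to 80056439. The 3 controls held 89.8, 87.9 and 72.2 CPM of it and the 3 Jag1 libraries 94.8, 97.1 and 83.2 CPM. Jag1 1 and 2 lay above all control libraries and Jag1 3 below Control 1 and 2. Its log2 fold change was 0.14 (SE 0.12, interval -0.12 to 0.40), and 0.05 without Control 3. The other tested glutathione peroxidase genes, Gpx2, Gpx7 and Gpx8, stood at 0.204 to 3.88 CPM in every library. Of the 7 catalase and glutathione peroxidase genes tested, 4 were positive with a median of 0.06, and 0 passed.

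Prdx1, a cytosolic peroxiredoxin on chromosome 4, 116685544 to 116700822, was at 138, 150.1 and 166 CPM in the controls and at 208, 156 and 161 CPM with Jag1. Jag1 1 stood apart above the other 5, and Jag1 2 and 3 lay within the control range. Prdx1 had a log2 fold change of 0.21 (SE 0.13, interval -0.08 to 0.49, edgeR adjusted p = 0.955), and 0.07 without Jag1 1. Its start-site window holds the antioxidant response element core capitalised in the sequence. Txn1 encodes thioredoxin, the small protein that recharges peroxiredoxins, and lies on chromosome 4, 57943373 to 57956411. Its levels were 33.2, 41.9 and 44.8 CPM in the controls against 45.8, 38.9 and 47.5 CPM with Jag1. Control 1 was the lowest library, and without it the log2 fold change of 0.14 (SE 0.14, interval -0.16 to 0.44) was 0.03.

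Txnip binds thioredoxin and curbs its activity, and belongs to the alpha arrestins, which also act on glucose uptake. It lies on chromosome 3, 96557957 to 96561883. Control 1, 2 and 3 held 518, 379.5 and 246.5 CPM, and Jag1 1, 2 and 3 held 374, 403 and 437 CPM. The control libraries held both the highest and the lowest value, and the Jag1 libraries fell between them. Means were 381 ± 136 CPM for control and 405 ± 31.3 CPM for Jag1 (SD, n = 3). Txnip had a log2 fold change of 0.09 (SE 0.24, interval -0.46 to 0.63, edgeR adjusted p = 0.992), with -0.15 without Control 3 and 0.37 without Control 1. The interval leaves room for a rise up to 1.55-fold or a fall to 0.729 of control.

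Arrdc4, an alpha arrestin that ChREBP also induces, was flatter than Txnip, with 27.6, 23.8 and 24.6 CPM in the controls, 26.8, 26.4 and 29.4 CPM with Jag1 and a log2 fold change of 0.12 (SE 0.12). Mlxipl, which encodes ChREBP, was at 110.5, 122 and 83.4 CPM in the controls and at 67.5, 108 and 77.6 CPM with Jag1, a log2 fold change of -0.32 (SE 0.20). Jag1 1 and 3 had the 2 lowest Mlxipl values, and Jag1 2 lay within the control range. Neither passed (edgeR adjusted p = 0.955 for both). The genes whose log2 CPM followed Txnip most closely over the 6 libraries, among those with a mean log2 CPM of at least 3, were Prss8 (Pearson r = 0.988), Ssrp1 (0.986), Osbpl2 (0.981), Nop2 (0.974) and Meaf6 (0.962). With 6 libraries and many genes such values are found by search, and they describe likeness only. Prss8, which encodes a membrane serine protease, ran from 4.69 CPM in Control 3 to 14.1 CPM in Control 1.

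Nqo1, a quinone reductase and a standard target of Nrf2, was the least abundant member and lies on chromosome 8, 107388225 to 107403206. The controls held 3.18, 3.52 and 3.74 CPM and the Jag1 libraries 2.23, 4.10 and 4.31 CPM, from counts of 42 to 144. Jag1 1 was the lowest of the 6 and Jag1 2 and 3 the highest. Its log2 fold change of 0.03 (SE 0.30, interval -0.63 to 0.69) became negative without Control 1 (-0.03), without Jag1 2 (-0.09) and without Jag1 3 (-0.12), and was 0.27 without Jag1 1.

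**Figure D3:**
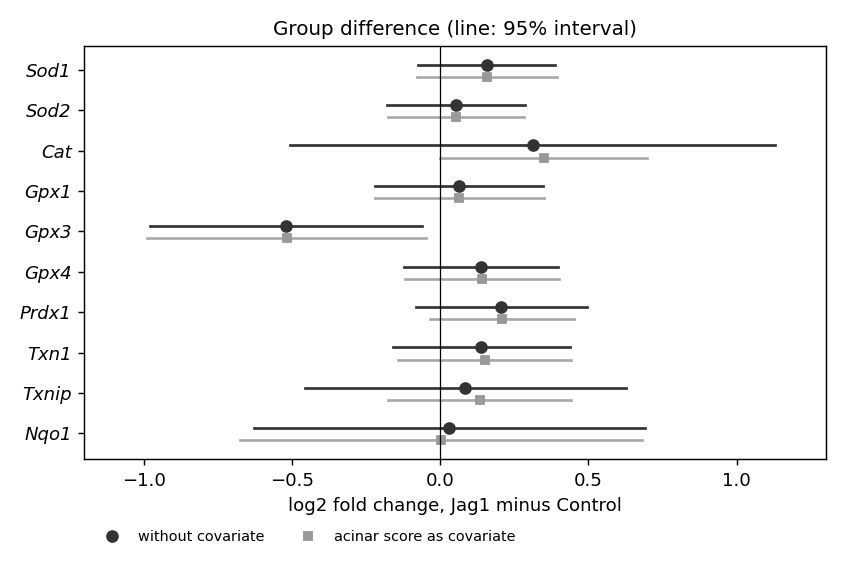
Log2 fold change of each member, Jag1 minus Control, with its 95% interval as a line (black circles), and the same with the acinar score as a covariate (grey squares). Without the covariate only the Gpx3 interval lies on 1 side of 0, unadjusted for the number of genes tested, and the Cat and Txnip intervals shorten with the covariate.

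Since exocrine content varied within both groups, the slope of each gene on the acinar score was tested across all genes with the group kept in the model. The score is the mean log2 CPM of the acinar markers, and a slope is the log2 change per unit of it. Of the 10 members 1, Cat, passed (edgeR adjusted p = 0.0379), where 0.753% of all genes tested passed and 0.746% did so with a positive slope. Those shares include the acinar markers that make up the score. With these markers left out, 85 genes passed in place of 106. Cat rose by 0.25 per unit of the score (SE 0.05, interval 0.15 to 0.36). It had 7.21 CPM at an acinar share of 0.34% in Control 3, 17.8 CPM at 7.53% in Control 1 and 20.4 CPM at 7.87% in Jag1 3. The 3 libraries between them did not follow the order of the share, with 12.4 CPM at 0.614% in Jag1 1, 13 CPM at 2.04% in Jag1 2 and 11.6 CPM at 2.87% in Control 2. The call was lost without Control 1 (slope 0.21, adjusted p = 0.36), without Control 3 (0.23, adjusted p = 0.524) and without Jag1 3 (0.26, adjusted p = 0.154). It was also lost with the non-robust fit (adjusted p = 0.0533) and without Control 1 and Jag1 3 together (0.18, adjusted p = 0.431), and over all alternatives the adjusted p ran from 0.00456 to 0.524.

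Txnip had the next largest slope, 0.17 (SE 0.04, interval 0.07 to 0.26), with an adjusted p of 0.188 by edgeR, and from 0.0361 (no filter on low counts) to 0.982 (without Control 3) over the alternatives. Its lowest library was Control 3, with the lowest acinar share, and its highest were Control 1 and Jag1 3, with the highest shares. Prdx1 had a slope of -0.08 (SE 0.03, adjusted p = 0.644), and the other 7 lay between -0.04 and 0.07. With the acinar score as a covariate, the group difference of Cat was 0.35 with an SE of 0.16 in place of 0.35, and that of Txnip 0.13 with an SE of 0.14 in place of 0.24. None of the members passed in that fit either (lowest edgeR adjusted p = 0.838).

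**Figure D4:**
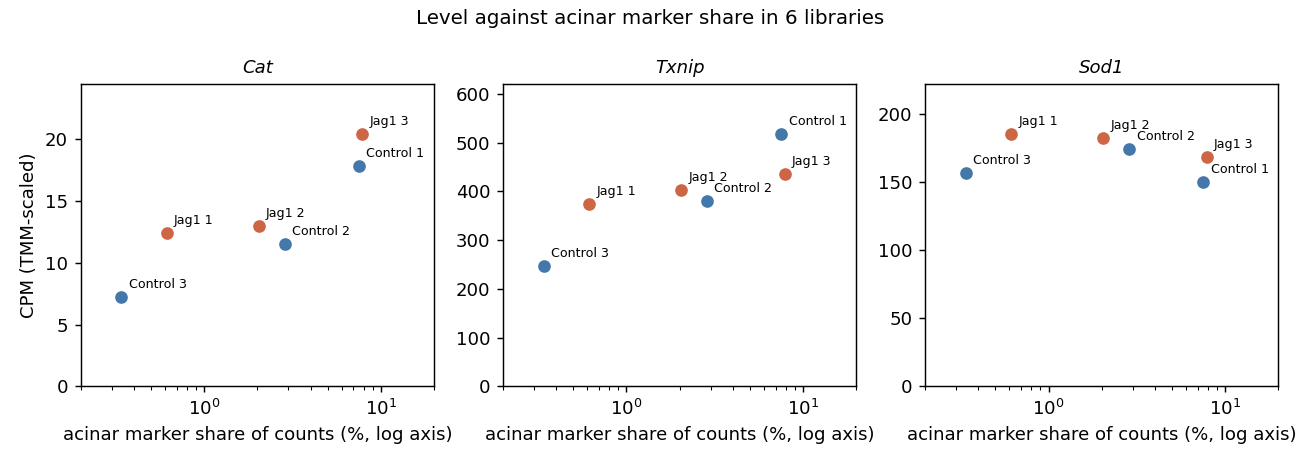
CPM of Cat, Txnip and Sod1 (1 point per library, blue Control, orange Jag1) against the share of counts from acinar markers on a log axis. Cat and Txnip are lowest in Control 3, at 0.34% acinar counts, and highest in Control 1 and Jag1 3, at 7.53% and 7.87%, while Sod1 lies between 149.7 and 185 CPM.

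Beyond the members, 12 lists of redox genes held 128 other genes, of which 119 were tested. Of these, 0 passed by edgeR, DESeq2 or limma-voom, and 4 had an unadjusted p under 0.05 by edgeR, which is 3.36% beside 4.97% of all genes. The groups did not overlap in 9 of the 119, which is 7.56% beside 10.5% of all genes, with 8 higher and 1 lower. The lowest edgeR adjusted p was 0.947. The lists include members where they belong. Apart from Hmox1, the genes named in the list paragraphs below were among the 3 of smallest p in their list, without passing.

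In the group of superoxide dismutases and superoxide-making oxidases, 6 of 11 tested were positive (median 0.05). Ccs, the chaperone that loads copper into Sod1, was at 7.63, 9.63 and 9.11 CPM in the controls and 11.3, 13.4 and 10.9 CPM with Jag1. All 3 Jag1 libraries lay above all 3 control libraries, with a log2 fold change of 0.44 (SE 0.17, unadjusted p = 0.0226, edgeR adjusted p = 0.947). Cybb, the catalytic subunit of the phagocyte oxidase, had -0.25 (SE 0.20). Among peroxiredoxins and their partners, 8 of 10 were positive (median 0.16). Prdx6, which also reduces phospholipid hydroperoxides, had 0.32 (SE 0.13, unadjusted p = 0.0344), the mitochondrial Prdx3 had 0.27 (SE 0.14), and the sestrin gene Sesn3 had -0.25 (SE 0.14). The 8 thioredoxin and thioredoxin reductase genes had a median of 0.03 and ranged from -0.16 to 0.23, with 0.16 for Txnl1, a thioredoxin-like protein gene, and 0.23 for Txnrd2, the mitochondrial reductase.

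Genes of glutathione synthesis and the glutaredoxins were split evenly, with 6 of 12 positive and a median of 0.01. Glrx5, a mitochondrial glutaredoxin that handles iron-sulfur clusters, lay higher in each Jag1 library, at 19.9 to 26.7 CPM, than in any control library, at 17.4 to 19.7 CPM (log2 fold change 0.31, SE 0.14, unadjusted p = 0.0464). Glrx had -0.13 (SE 0.12), and Gclm, the modifier subunit of the rate-limiting ligase of glutathione synthesis, had 0.06 (SE 0.11). Of the 9 genes of NADPH supply, 6 were positive with a median of 0.03. Nnt, which makes NADPH in mitochondria, had 0.43 (SE 0.25) and ranged from 30.96 to 77.35 CPM over the libraries. Taldo1 and Idh1, enzymes of the pentose phosphate pathway and of cytosolic NADPH production, had 0.14 (SE 0.10) and 0.15 (SE 0.12).

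Nrf2 itself, from Nfe2l2, was at 41, 39.2 and 36.3 CPM in the controls and at 44.5, 44.2 and 42.6 CPM with Jag1. The groups did not overlap, but the difference was small, with a log2 fold change of 0.17 (SE 0.11, edgeR adjusted p = 0.955). Keap1, the adaptor that targets Nrf2 for degradation, had 0.09 (SE 0.11), and Mafg, a small partner of Nrf2 on DNA, had -0.21 (SE 0.13). The 9 regulators of the Nrf2 pathway had 6 positive and a median of 0.03. Of 23 Nrf2 target genes, 18 were positive with a median of 0.11, and 0 passed. The haem-degrading enzyme gene Hmox1 overlapped between groups, at 5.82 to 7.62 CPM in the controls and 4.57 to 10.4 CPM with Jag1. Cbr1, a carbonyl reductase gene, had 0.26 (SE 0.16). Gsta4, a glutathione transferase gene, had 2.23 (SE 0.92, unadjusted p = 0.0415), which rested on Jag1 1 at 5.58 CPM, with 0.654 and 0.768 CPM in Jag1 2 and 3 and 0.329 to 0.715 CPM in control.

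The alpha arrestins and regulators of Txnip had 5 of 11 positive and a median of -0.03, with 0.11 (SE 0.12) for the deubiquitinase gene Usp5. The 11 ChREBP target genes had 9 positive and a median of 0.07, with 0.18 (SE 0.19) for G6pc2, the islet glucose-6-phosphatase gene, and -0.12 (SE 0.11) for Gpd1, a glycerol phosphate dehydrogenase gene. Of 27 selenoprotein and selenocysteine machinery genes, 15 were positive with a median of 0.02. Sephs2, which makes the selenium donor, had 0.22 (SE 0.11) and Trnau1ap, which binds the selenocysteine transfer RNA, had 0.35 (SE 0.18). Of 10 genes of methionine sulfoxide and peroxide repair, 8 were positive with a median of 0.12, led by Msrb3 (0.37, SE 0.23), a methionine sulfoxide reductase gene, with Aifm2 at 0.31 (SE 0.22) and the glyoxalase gene Hagh at 0.15 (SE 0.10).

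**Figure D5:**
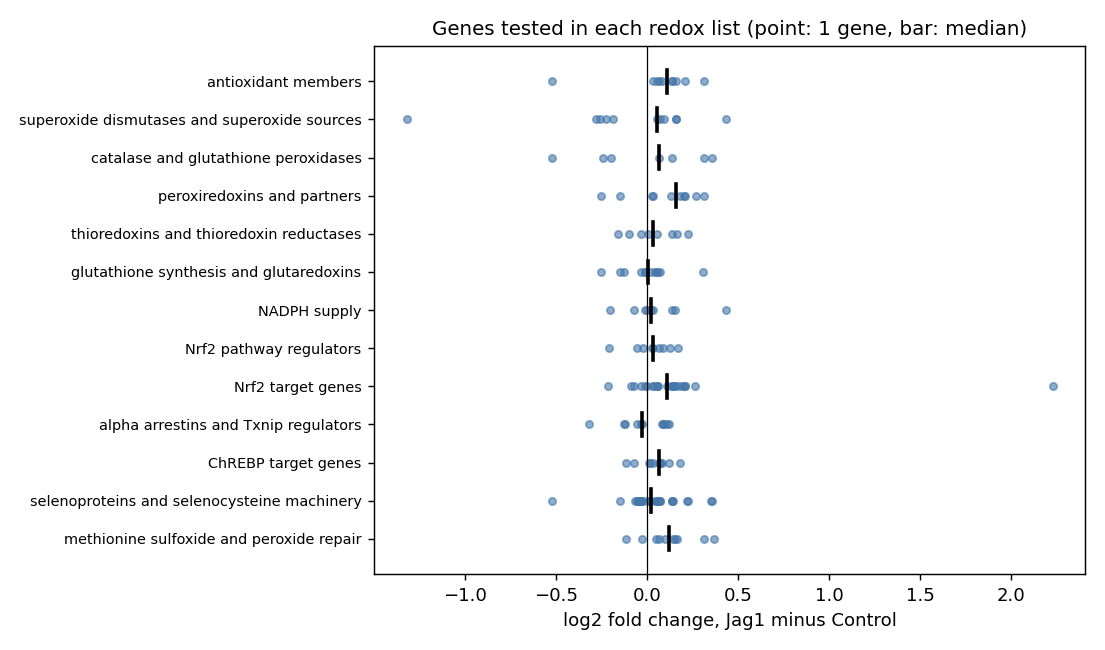
Log2 fold change, Jag1 minus Control, of each tested gene (point) in the list of the 10 members and the 12 wider lists, with the median of each list as a bar. List medians lie between -0.03 and 0.16, and the outermost points are Rac2 at -1.32 and Gsta4 at 2.23.

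The authors' deposited table of their limma comparison was read for the 10 members. In the authors' deposited table Gpx3 has a log2 fold change of -0.49 with a p of 0.0398 and an adjusted p of 0.929, Cat has 0.31 (adjusted p 0.929) and Txnip 0.15 (adjusted p 0.964). No member passes 0.05 there, with adjusted p-values of 0.929 to 0.997 in the authors' deposited table.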

How the data were processed

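Per the labels' protocols, islets were harvested with Trizol and sequenced from TruSeq Stranded mRNA libraries. Estimated counts per gene symbol were deposited without normalization. Bcl2fastq, kallisto and limma, and the build GRCm38 (mm10), are named in the submitters' processing notes, while versions, the annotation and how transcripts were summed are not given in the sources used here. A second deposited table holds the authors' log2 fold changes, p-values and 2 statistics of the score type, per the file headers. The number of sample columns left unused was 0.

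The deposited estimated counts, which are whole numbers, were tested with edgeR 4.0.16 in R 4.3.3 (TMM, filterByExpr with a minimum count of 10, robust quasi-likelihood fit of all 6 libraries, no covariate), with Benjamini-Hochberg adjustment at 0.05 over the 14073 genes kept. A row naming no gene (0.00896% to 0.0155% of counts) was left out. Intervals of fold changes and slopes are 95% intervals of that fit, unadjusted, and those of shares cover counting error only. Log2 CPM used a prior count of 2. Scripts were tested on simulated data. For the group comparison, 16% of simulated 1.5-fold, 64% of 2-fold and 96% of 4-fold changes were recovered. Of 149 calls there, 11 were false. Alternatives were DESeq2 1.42.0, limma-voom (limma 3.58.1), other scalings and filters, a non-robust fit, a replicate block, an acinar covariate and each library left out. The setting without both Control 1 and Jag1 3 was chosen once the data had been seen.

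The members and lists were chosen with earlier results of these data known. Named were the members, Nfe2l2, Keap1, Mlxipl and Arrdc4, the 3 smallest p in each list, Jag1, and the 5 genes most like Txnip. Hmox1, Gpx2, Gpx7, Gpx8, Ggt1, Rac2, Duox2, Ins2, Ms4a1, Cd79b, Spp1, Krt8, Sox9, Car2, Rgs5 and Acta2 were named after their values were seen. Coordinates and exon lengths are from GENCODE vM21 (GRCm38), where 34213 of 34945 symbols matched. Shared transcript sequence was searched with BLAST 2.17.0 (at least 85% identity over 100 bp). Figures used matplotlib 3.10.9.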

Additional observations from a re-analysis of the deposited data

How the results depend on the processing

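Over 18 alternatives, 0 of the 10 members and 0 of the wider redox genes were called in each. The lowest adjusted p of a member was 0.49, for Gpx3 with the DESeq2 test. The Gpx3 fold change was negative in all 18. The number of all genes called was 3, and became 11 with library totals alone, 9 with no filter on low counts, 29 with the DESeq2 test, 7 without Control 1 and Jag1 3 together, and 2 to 6 with 1 library left out (6 without Jag1 2, 5 without Jag1 3). Fewer samples entered where libraries were left out, and for the others the cause was not tested.

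The sign turned for Nqo1 with the replicate block (-0.02) and without Control 1 and Jag1 3 together (-0.17), and for Txn1 without those 2 libraries (-0.029). With 1 library left out, values ranged from -0.003 to 0.10 for Sod2, -0.051 to 0.145 for Gpx1, -0.15 to 0.37 for Txnip and -0.12 to 0.27 for Nqo1. On the acinar score 106 genes were called, the acinar markers included. This became 285 with no filter on low counts, 162 without Control 1 and Jag1 3 together and 81 to 175 with 1 library left out (175 without Control 2, 166 without Jag1 2). The number of members called went from 1 to 2 with no filter on low counts, to 0 with the non-robust fit, to 0 without those 2 libraries together, and was 0 to 1 with 1 library left out. Slopes turned sign without Control 1 and Jag1 3 together for Sod1 (0.04) and Gpx3 (0.13), and with 1 library left out ranged from -0.066 to 0.095 for Gpx3, -0.046 to 0.064 for Gpx1, -0.044 to 0.069 for Gpx4 and -0.034 to 0.199 for Nqo1.

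The sources used here do not say whether libraries of the same replicate number are paired. Deviations of same-numbered libraries from their group means correlated at -0.19, 0.11 and -0.29, and not every library correlated best with its own number. The highest values joined libraries alike in acinar share, 0.294 for Control 1 with Jag1 3 and 0.265 for Control 3 with Jag1 1. These correlations therefore cannot decide whether the libraries are paired. The replicate block called 3 genes and 0 members. With the longest transcript 8 of 10 members kept their place in the order of levels, and with the shortest coding transcript 6. Reads of Sod2 are uncertain in part, since its transcript sequence matches other genes over up to 355 bp. Deposited counts of genes matching Sod1, Gpx4, Prdx1, Txn1 and Txnip summed to 0 to 15, where a matching gene without deposited counts adds 0. The longest match was 762 bp at 99.7% identity for Gpx4 and 443 bp at 100% for Txnip. Low counts of a match do not show that the reads of these members were assigned rightly. Depth limits Nqo1 most, with 42 to 144 counts a library.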

Other observations

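Jag1 1 held 5.63 CPM of Duox2, a peroxide-making dual oxidase gene too low to be tested, against 0.0569 to 0.65 CPM in the other 5 libraries. Gsta4 stood at 5.58 CPM in the same library and at no more than 0.768 CPM elsewhere.

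Rac2, which encodes a subunit of the leukocyte NADPH oxidase, stood at 16.3 CPM in Control 1 and at 0.544 to 4.25 CPM in the other libraries. The B lymphocyte genes Ms4a1 and Cd79b stood at 31.8 and 12.6 CPM in Control 1 and at most at 0.715 and 0.825 CPM elsewhere. The 9 lymphocyte markers summed to 90.7 CPM in Control 1 and to 7.82 to 16.7 CPM in the other 5 libraries. Their part in the Rac2 values was not tested.

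Of the 119 wider redox genes tested, 1 was called on the acinar score, beside 0.753% of all genes, the acinar markers included. It was Ggt1, a gamma-glutamyltransferase gene of glutathione breakdown (slope 1.05, edgeR adjusted p = 1.07e-06). It ran from 0.68 CPM in Control 3 to 17.7 CPM in Jag1 3.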
